A study of Mus musculus with 14 samples.

Results

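The comparison is between the αTN4-1 line labelled S133A/R314A-CREB and the line labelled R314A-CREB, which differ in their labels by the S133A change alone, made once in control cells and once in TGFβ-treated cells. A gene entered when its mean over the 4 libraries was at least 5 TPM (a level per transcript length and library total), which held for 10437 of 40853 genes. A gene was called when log2(TPM + 1) differed by at least 1 (2-fold on that scale) between the lines. Of the 10437 genes, 569 were past 2-fold in at least 1 treatment. In both treatments 100 genes were higher (0.958% of those kept) and 83 lower (0.795%) in S133A/R314A-CREB cells. With a difference under 0.5 in the other treatment, 28 were higher (0.268%) and 31 lower (0.297%) in control only, and 33 were higher (0.316%) and 52 lower (0.498%) in TGFβ only. Another 115 genes past 2-fold in control and 127 past 2-fold in TGFβ cells had a difference of 0.5 to 1 in size in the other treatment, in the same direction for 111 and 123 of them. No gene was past 2-fold in opposite directions.

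αTN4-1 is an epithelial line from the lens of mice that carry a viral T antigen. Cells of both lines were labelled as overexpressing their CREB construct and grew in medium with serum under neomycin. The TGFβ libraries came from cells given 20 ng/mL TGFβ in medium without serum for 24 h. Whether control cells kept their serum is not stated, so TGFβ and the loss of serum cannot be told apart. There is 1 line per construct and 1 library per line and treatment, so a difference that comes with the construct and one that comes with the line itself cannot be told apart, and no test was possible within a treatment. The other 5 lines of the study (S133A-CREB, S133A-KCREB, WT-CREB, KCREB and Vector) served to set the spread and as a second view of S133A.

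CREB activates transcription from cAMP response elements. Phosphorylation of S133, a serine, by protein kinase A lets CREB recruit the coactivators CBP and p300, which S133A prevents, and R314A lies in the leucine zipper and is known to block binding of the CRTC coactivators. The line labelled S133A/R314A-CREB therefore carries a construct altered at both coactivator contacts, and its partner a construct altered at one. Many of the genes below are interferon-stimulated genes, which are switched on through interferon-stimulated response elements and act against viruses.

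Depth, read from the ratio of per-base coverage to FPKM, was 8.96 and 6.88 coverage units per FPKM in the S133A/R314A-CREB control and TGFβ libraries, against 5.05 and 5.74 in the R314A-CREB libraries, where the other 10 libraries ran from 6.01 to 10.08. Mitochondrially encoded genes held 5.59% and 6.04% of TPM in the S133A/R314A-CREB libraries, against 8.20% and 7.20% in the R314A-CREB libraries. Read counts are not in the tables, so intervals from counting were not computed. Of 8 lens epithelium markers 5 were kept, and of 9 lens fiber markers 2, while 1 and 3 were listed at 0 in all 4 libraries. Among those kept, Pax6 had 77.8 and 59.4 TPM in S133A/R314A-CREB control and TGFβ cells, against 128 and 116 TPM in R314A-CREB cells. Kept among markers of other cell types were 0 of 6 endothelial, 2 of 8 macrophage and 2 of 8 muscle genes. Also kept were 2 of 6 surface ectoderm, 4 of 7 fibroblast, 1 of 7 neuron and retina and 1 of 6 pigment cell genes. Of all these, Des, Krt14 and Col1a2 were past 2-fold in both treatments.

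Creb1, the gene of CREB, had 7.92 and 6.01 TPM in S133A/R314A-CREB control and TGFβ cells, against 9.04 and 5.89 TPM in R314A-CREB cells. Both lines thus had about the same Creb1 level, and both were below the Vector line, which had 20.8 and 23.1 TPM. A gain of Creb1 over Vector is not seen in either line labelled as overexpressing, a gene total cannot show the S133A or R314A change, and the names of the lines are used here as the labels give them. The relatives Crem and Atf1 and the coactivator genes Crtc1, Crtc2 and Crtc3 were all under 2-fold in both treatments, and none passed the limma test described next. Crebbp, the gene of CBP, was higher in S133A/R314A-CREB cells, with 34.6 and 37.6 TPM in control and TGFβ cells, against 22.6 and 20.6 TPM in R314A-CREB cells.

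The spread behind these values came from limma fitted on log2(TPM + 1) of all 14 libraries with line and treatment as terms, with Benjamini-Hochberg adjustment over 12927 genes. Its error is how far lines depart from a common TGFβ response, and it does not measure how far 2 lines with 1 construct would differ. In this fit Crebbp was higher by 0.71 ± 0.11 on the log2 scale (limma, SE, adjusted p = 0.00225). Over all genes, 1347 were higher (10.4% of those tested) and 1605 lower (12.4%) in S133A/R314A-CREB cells at an adjusted p under 0.05, and 236 and 215 of these were at least 2-fold. The split turned to 1572 higher and 1396 lower with median-of-ratios scaling.

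Past 2-fold, 185 genes were higher (1.77% of those kept) and 172 lower (1.65%) in S133A/R314A-CREB control cells, and 187 were higher (1.79%) and 208 lower (1.99%) in S133A/R314A-CREB TGFβ cells. Of the 100 higher and 83 lower in both treatments, 36 and 13 were past 4-fold in both. The limma test was passed by 96 of the 100 and 78 of the 83, which is no added support, since it averages the same differences that chose them. Over the 10437 genes the median difference was -0.02 in control and -0.04 in TGFβ cells, with an SD across genes of 0.48 and 0.50. Many differences rest on a gene nearly silent in one line: the lower line was under 5 TPM in both libraries for 49 of the 100 and 31 of the 83, and under 1 TPM for 14 and 8. Such genes passed the filter only through the line where they are high, and the p-values given for them below are no support for a difference.

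**Figure D1:**
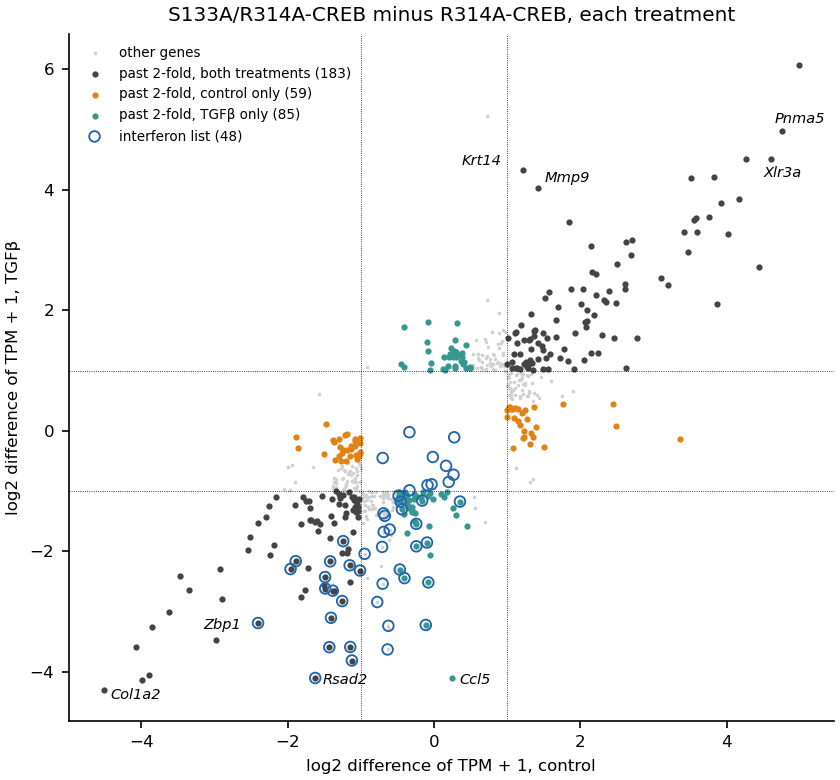
Each point is 1 of the 10437 genes kept; the horizontal axis is the log2 difference of TPM + 1 (S133A/R314A-CREB minus R314A-CREB) in control cells and the vertical axis the same in TGFβ cells, with dotted lines at 2-fold. Colours mark the 183, 59 and 85 genes past 2-fold in both treatments, in control only and in TGFβ only, and open circles the 48 interferon-stimulated genes, all of which lie below 0 on the vertical axis.

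Of the gene lists, interferon-stimulated genes held the most genes lower in S133A/R314A-CREB cells. Of 60 listed genes, 48 were kept, none was past 2-fold higher in either treatment, and 16 were past 2-fold lower in control and 38 in TGFβ cells. The same 16 were lower in both treatments and make up 19.3% of the 83 genes lower in both. Members such as Rsad2, Oasl1 and Ifi47 were kept only through their level in R314A-CREB cells. They could only come out lower, and add to the counts without being a sign of a direction. The list's median difference was -0.65 in control and -1.98 in TGFβ cells, beside -0.02 and -0.04 over all genes kept. In the limma fit 28 of 57 tested members were lower and none was higher, beside 12.4% and 10.4% of all genes. The count was 13 with the 4 libraries alone, 12 without the treatment term and 7 of 59 with no filter on low values.

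The promoters of 3 of the lowest 15 genes are shown as examples that hold the element through which such genes are known to be switched on. They are Rsad2, which encodes the antiviral enzyme viperin (chr12:26492742-26506451, minus strand, GRCm39, per the deposited tables), Isg15, a ubiquitin-like protein attached to other proteins during the interferon response (chr4:156283881-156285275, minus strand), and Ifit1, which binds foreign RNA ends (chr19:34618289-34627409, plus strand). The windows below run 5′ to 3′ on the gene's strand from 250 bases before to 50 bases after the start, in RefSeq sequence on GRCm38.p6. Capitals mark every match to GAAA, any 2 bases and GAAA on either strand, overlapping matches being joined.
Rsad2, chr12:26456403-26456702, minus strand: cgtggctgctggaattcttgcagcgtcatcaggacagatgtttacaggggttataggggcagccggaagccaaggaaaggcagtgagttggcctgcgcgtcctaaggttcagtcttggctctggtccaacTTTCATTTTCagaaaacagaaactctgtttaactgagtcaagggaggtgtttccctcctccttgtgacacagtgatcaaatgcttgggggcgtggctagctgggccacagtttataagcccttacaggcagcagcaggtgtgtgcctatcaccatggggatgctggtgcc
Isg15, chr4:156200769-156201068, minus strand: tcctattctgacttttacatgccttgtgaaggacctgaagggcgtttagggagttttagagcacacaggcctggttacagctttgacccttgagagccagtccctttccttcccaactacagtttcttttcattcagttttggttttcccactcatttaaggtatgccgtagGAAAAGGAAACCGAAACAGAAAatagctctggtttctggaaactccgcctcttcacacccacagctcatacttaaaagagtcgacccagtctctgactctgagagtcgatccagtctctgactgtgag
Ifit1, chr19:34640639-34640938, plus strand: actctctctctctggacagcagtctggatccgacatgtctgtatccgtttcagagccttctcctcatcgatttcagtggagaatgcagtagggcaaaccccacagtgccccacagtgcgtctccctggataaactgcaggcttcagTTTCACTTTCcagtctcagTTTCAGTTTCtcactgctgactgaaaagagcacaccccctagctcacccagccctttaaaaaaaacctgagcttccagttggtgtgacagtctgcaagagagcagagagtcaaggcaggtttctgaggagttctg
The Rsad2 window holds 1 match, Ifit1 holds 2 and Isg15 holds 3 that overlap. The window of Oasl1, another member, holds 0, and Zbp1 is not shown.

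Of the 48 kept interferon-stimulated genes, 35 matched a RefSeq promoter by symbol, and 19 of the 35 (54.3%) held this interferon-response-like motif, against 1079 of all 27025 promoters (3.99%). All 19 were among the 29 matched members past 2-fold lower in TGFβ cells (65.5%). Of all genes past 2-fold in both treatments, 5 of 79 matched higher genes (6.33%) and 14 of 58 matched lower genes (24.1%) held it. The 83 lower genes include 16 of the interferon list, whose members are known to be switched on through such elements. The shares of the list and of the lower genes are thus not independent of how the list was drawn up. The full cAMP response element TGACGTCA stood in 1 of the 79 higher (1.27%) and 1 of the 58 lower genes (1.72%), near the 2.03% of all promoters. Its half-site TGACG stood in 17.7% of higher and 15.5% of lower genes, against 23.05% of all promoters. Each match is a run of letters and not evidence of binding, and both strands were searched.

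Rsad2 had 0.716 and 2.22 TPM in S133A/R314A-CREB control and TGFβ cells, against 4.28 and 54.1 TPM in R314A-CREB cells. The R314A-CREB TGFβ library stood far above the other 3, and both S133A/R314A-CREB libraries lay below both of R314A-CREB. The line difference was -2.86 ± 0.75 on the log2 scale (limma, SE, adjusted p = 0.0234).

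Isg15 had 166 and 121 TPM in S133A/R314A-CREB control and TGFβ cells, against 449 and 1459 TPM in R314A-CREB cells, with a line difference of -2.51 ± 0.62 (limma, SE, adjusted p = 0.0194). Ifit1 had 32.6 and 23.1 TPM in S133A/R314A-CREB control and TGFβ cells, against 72.0 and 336 TPM in R314A-CREB cells. Its line difference of -2.46 ± 0.76 (limma, SE, adjusted p = 0.0442) missed the threshold without the line S133A-KCREB or Vector, with adjusted p up to 0.0610 over the fits that each leave out 1 line. In both genes the lines did not overlap, and TGFβ cells stood above control cells in R314A-CREB and below them in S133A/R314A-CREB.

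Zbp1, a sensor of left-handed nucleic acids that can trigger necroptosis, was low in a steadier way. It had 11.4 and 6.48 TPM in S133A/R314A-CREB control and TGFβ cells, against 64.7 and 67.0 TPM in R314A-CREB cells, and its line difference was -2.79 ± 0.34 (limma, SE, adjusted p = 0.000862). The 2'-5' oligoadenylate synthetase Oas2, whose product activates RNase L, had 17.1 and 7.71 TPM in S133A/R314A-CREB cells and 69.2 and 41.6 TPM in R314A-CREB cells. Its line difference was -2.13 ± 0.33 (limma, SE, adjusted p = 0.00269). The immunity-related GTPase genes Igtp, Irgm1 and Irgm2, the guanylate-binding proteins Gbp2 and Gbp3, and Ifi47, whose products act on the vacuoles of intracellular parasites, were past 2-fold lower in both treatments and passed the test as well. Genes of the interferon list beyond Rsad2, Zbp1, Isg15 and Ifit1 were picked for naming after their values were seen.

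Stat2 and Irf9, which encode transcription factors of the interferon response, were past 2-fold in TGFβ cells only. Stat2 had 40.6 and 34.1 TPM in S133A/R314A-CREB control and TGFβ cells, against 55.3 and 85.5 TPM in R314A-CREB cells. Stat2 and Irf9 differed by -0.87 ± 0.27 and -0.78 ± 0.25 and passed (limma, SE, adjusted p = 0.0443 and 0.0486). Stat2 missed the threshold without S133A-KCREB, Vector or WT-CREB, with adjusted p up to 0.0624, and Irf9 without S133A-CREB, Vector or WT-CREB, with adjusted p up to 0.0669. Irf7, a factor that amplifies interferon production, had 22.5 and 18.3 TPM in S133A/R314A-CREB control and TGFβ cells, against 39.2 and 137 TPM in R314A-CREB cells, and did not pass (limma, adjusted p = 0.0879).

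In these libraries the interferon genes also changed differently with treatment in the 2 lines, though no member passed the test of that difference. From control to TGFβ, 11 of the 48 were higher in S133A/R314A-CREB cells, against 42 of 48 in R314A-CREB cells. The list's median TGFβ response was -0.41 on the log2 scale in S133A/R314A-CREB cells and 0.77 in R314A-CREB cells. Summed over the 48 genes, the level was 3121 and 2309 TPM in S133A/R314A-CREB control and TGFβ cells, against 4679 and 8122 TPM in R314A-CREB cells. The R314A-CREB TGFβ library held the highest value of the 4 for 42 of the 48 genes. The difference of the 2 responses was below 0 for 46 of 48 genes, with a median of -1.06, beside -0.03 over all genes kept. Its unadjusted p was under 0.05 for 17 of the 48 (limma, two-sided, against the spread of responses over the other 5 lines). The share over all genes tested was 4.3%. An adjusted p under 0.05 was reached by none.

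Set against the other 5 lines, both of these lines lie inside the range. The summed level was 8367 and 10300.4 TPM in S133A-CREB control and TGFβ cells, 2357 and 1405 TPM in S133A-KCREB cells, 2589 and 1781 TPM in WT-CREB cells, 3919 and 1984 TPM in KCREB cells and 3726 and 2832 TPM in Vector cells. R314A-CREB and S133A-CREB were the lines whose sum was higher with TGFβ than in control. In the pair of S133A-CREB and WT-CREB, 33 of the 48 genes in control and 42 in TGFβ cells were past 2-fold higher in S133A-CREB and none was lower. Over all genes of that pair, 3.85% were past 2-fold higher in both treatments and 1.01% lower. In the pair of S133A-KCREB and KCREB, 15 genes were past 2-fold lower in each treatment and 2 were higher in control. There, 2.21% of all genes were higher in both treatments and 1.91% lower. Shares within a single treatment were not computed for these pairs. Of the 3 lines with S133A, S133A-CREB had the highest sum of all 7 lines and S133A-KCREB the lowest in both treatments.

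**Figure D2:**
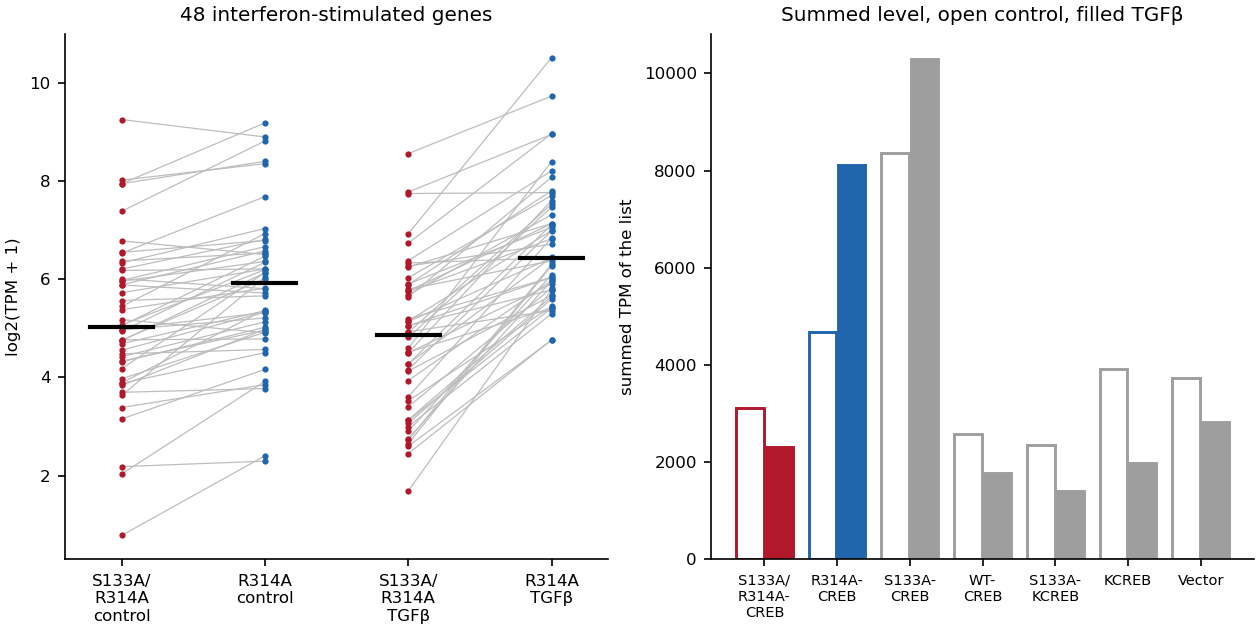
Left, log2(TPM + 1) of the 48 interferon-stimulated genes in the 4 libraries, with a grey line joining each gene between lines within a treatment and a black bar at the median. Right, their summed TPM in control (open bars) and TGFβ (filled bars) libraries of the 7 lines; the R314A-CREB sum is 8122 TPM with TGFβ, where S133A/R314A-CREB has 2309 TPM.

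MHC class I and antigen processing genes, which present peptides to T cells and include interferon targets, had smaller differences. Of 16 kept, 1 was past 2-fold lower in both treatments and none was higher, and the list's median was -0.35 in control and -0.70 in TGFβ cells. In the limma fit 10 of 19 were lower and 1 was higher, beside 12.4% and 10.4% of all genes. H2-T23, the gene of the non-classical molecule Qa-1, had 4.85 and 3.33 TPM in S133A/R314A-CREB control and TGFβ cells, against 15.5 and 24.4 TPM in R314A-CREB cells, a line difference of -2.02 ± 0.25 (limma, SE, adjusted p = 0.000874). H2-T23, the gene past 2-fold in both treatments, was kept only through its level in R314A-CREB cells, so its p-value is no added support. The transactivator gene Nlrc5 was the one on the other side, by 0.88 ± 0.28 (limma, SE, adjusted p = 0.0468), and missed the threshold without S133A-CREB, S133A-KCREB, Vector or WT-CREB, with adjusted p from 0.0142 to 0.0650 over the fits without 1 line.

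Several of the highest 15 genes are known from germ cells, oocytes or the early embryo. The germline list holds 54 genes and was drawn up with such genes of these lines in view, so its count is no independent sign of a direction. Of its members 7 were kept, 20 were listed at 0 TPM in all 4 libraries and the others averaged under 5 TPM. Pnma5, Xlr3a, Nlrp4e, Nlrp4f and Cox7b2 were kept only through their level in S133A/R314A-CREB cells and Rsph9 only through R314A-CREB cells, so that they had to differ between the lines, and no count or median of the list is given as support.

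Pnma5, a member of the paraneoplastic antigen family on the X chromosome (chrX:72077587-72083315, GRCm39), had 29.5 and 41.3 TPM in S133A/R314A-CREB control and TGFβ cells, against 0.134 and 0.339 TPM in R314A-CREB cells. It was on in one line and nearly off in the other, with a line difference of 4.87 ± 0.25 (limma, SE, adjusted p = 8.51e-06). Xlr3a, an X-linked gene of a lymphocyte-regulated family close by (chrX:72129899-72140701), had 27.2 and 27.6 TPM in S133A/R314A-CREB cells, against 0.156 and 0.251 TPM in R314A-CREB cells. None of the other 10 libraries passed 0.996 TPM for Xlr3a, so that S133A/R314A-CREB stands apart from all 6 other lines. Xlr3a has near-identical copies, among which the authors' processing could divide reads.

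The oocyte genes Nlrp4e and Nlrp4f belong to a family of NOD-like receptor genes with near-identical members. Nlrp4e had 17.8 and 13.5 TPM in S133A/R314A-CREB control and TGFβ cells, against 0.0407 and 0 TPM in R314A-CREB cells. Nlrp4f had 11.8 and 8.85 TPM in S133A/R314A-CREB cells, against 0.199 and 0 TPM in R314A-CREB cells. Vector control and TGFβ cells had 10.4 and 10.6 TPM of Nlrp4f and 31.9 and 27.0 TPM of Cox7b2. Cox7b2, a testis form of a cytochrome c oxidase subunit, had 42.7 and 37.8 TPM in S133A/R314A-CREB cells, against 2.65 and 2.36 TPM in R314A-CREB cells, a line difference of 3.55 ± 0.31 (limma, SE, adjusted p = 0.000178).

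The homeobox gene Rhox5 had 106 and 97.4 TPM in S133A/R314A-CREB control and TGFβ cells, against 16.6 and 17.2 TPM in R314A-CREB cells, while the other lines ran from 3.11 to 678 TPM. Dppa2 and Dppa4, neighbours that keep developmental genes open in early embryos, are outside the list and were noticed after their values were seen. Dppa4 had 16.6 and 19.07 TPM in S133A/R314A-CREB control and TGFβ cells, against 1.71 and 1.65 TPM in R314A-CREB cells. Dppa2 had 12.8 and 18.0 TPM in S133A/R314A-CREB cells, against 1.74 and 3.23 TPM in R314A-CREB cells, and both passed limma. The germline gene on the other side was Rsph9, a radial spoke protein of cilia and flagella, at 0.780 and 0.944 TPM in S133A/R314A-CREB cells and 12.6 and 8.54 TPM in R314A-CREB cells.

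Cd48 and Pf4, known from blood cells, were also among the highest 15. Both were kept only through their level in S133A/R314A-CREB cells, and no count of blood cell genes was made. Cd48, a surface ligand of lymphocytes and other leukocytes, had 22.8 and 19.5 TPM in S133A/R314A-CREB control and TGFβ cells, against 0.671 and 0.103 TPM in R314A-CREB cells. S133A-CREB control and TGFβ cells had 21.2 and 18.4 TPM of Cd48. Pf4, a chemokine of platelets, had 17.9 and 12.7 TPM in S133A/R314A-CREB cells, against 0.247 and 0 TPM in R314A-CREB cells, and was at most 1.21 TPM in the other 10 libraries. Of the 8 macrophage markers, 2 were kept, 3 were listed at 0 in all 4 libraries and none was past 2-fold in both treatments, and their sum was 69.2 and 34.9 TPM in S133A/R314A-CREB control and TGFβ cells, against 39.8 and 23.1 TPM in R314A-CREB cells. Lyz2, lysozyme, had 63.6 and 25.6 TPM in S133A/R314A-CREB cells, against 34.7 and 11.2 TPM in R314A-CREB cells. Cd68, the other kept marker, had 4.02 and 6.19 TPM in S133A/R314A-CREB cells, against 3.62 and 9.91 TPM in R314A-CREB cells, and did not pass (limma, adjusted p = 0.639). The part of other cell types in these differences was not tested.

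Other genes of the highest 15 encode enzymes, cell-death and trafficking proteins. St6gal1 adds sialic acid to glycans, Hs6st2 sulfates heparan sulfate and Rab38 is a GTPase of lysosome-related organelles. Rab38 had 20.6 and 5.56 TPM in S133A/R314A-CREB control and TGFβ cells and was listed at 0 in both R314A-CREB libraries. Ripk3, the kinase of necroptosis to which Zbp1 is known to signal, had 33.5 and 32.4 TPM in S133A/R314A-CREB control and TGFβ cells, against 1.84 and 2.40 TPM in R314A-CREB cells, a line difference of 3.45 ± 0.22 (limma, SE, adjusted p = 2.63e-05). Ripk3 and Zbp1 thus lay on opposite sides. WT-CREB control and TGFβ cells had 38.1 and 46.0 TPM of Ripk3, above both S133A/R314A-CREB libraries. Pfn2, an actin-binding profilin, had 21.8 and 16.3 TPM in S133A/R314A-CREB cells, against 0.940 and 0.528 TPM in R314A-CREB cells. Rab38, Ripk3 and Pfn2 were kept only through their level in S133A/R314A-CREB cells, so the p-value of Ripk3 is no added support.

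**Figure D3:**
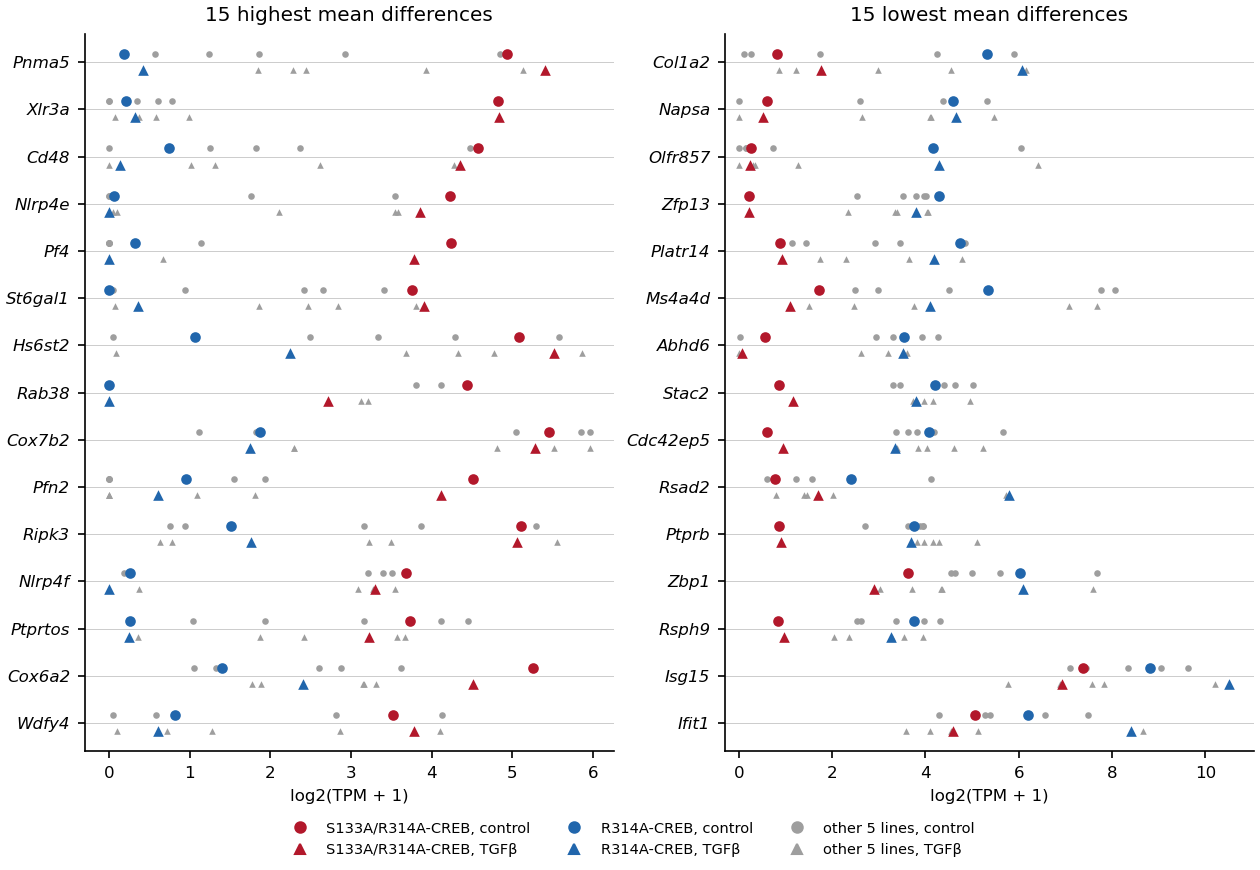
log2(TPM + 1) of the 15 genes with the highest (left) and the 15 with the lowest (right) mean differences among named genes past 2-fold in both treatments. Red is S133A/R314A-CREB, blue R314A-CREB and grey the other 5 lines, with circles for control and triangles for TGFβ; for Xlr3a and Pf4 the red points lie above all others, and for Zfp13 below all others.

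Predicted genes were passed over in these rankings. The largest difference of all kept genes that were past 2-fold in both treatments was in one of them, Gm35195, with 510 and 348 TPM in S133A/R314A-CREB control and TGFβ cells, against 15.1 and 4.19 TPM in R314A-CREB cells.

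Of 16 kept matrix proteases and inhibitors, 2 were past 2-fold higher in both treatments, and 6 of 18 were higher and none lower in the limma fit, beside 10.4% and 12.4% of all genes. Mmp9, the gelatinase that cleaves type IV collagen, had 10.4 and 268 TPM in S133A/R314A-CREB control and TGFβ cells, against 3.27 and 15.5 TPM in R314A-CREB cells. The S133A/R314A-CREB TGFβ library was the highest of all 14, the others being at most 109 TPM, and the line difference was 2.72 ± 0.77 (limma, SE, adjusted p = 0.0332). Plau, the urokinase that activates plasminogen, had 25.4 and 50.2 TPM in S133A/R314A-CREB cells, against 11.0 and 17.7 TPM in R314A-CREB cells. Krt14, a keratin of basal epithelium, followed Mmp9, with 3.42 and 42.7 TPM in S133A/R314A-CREB control and TGFβ cells, against 0.894 and 1.17 TPM in R314A-CREB cells. Clu, the secreted chaperone clusterin and a gene of the complement list, had 0.820 and 261 TPM in S133A/R314A-CREB cells, against 0.0996 and 6.01 TPM in R314A-CREB cells, and the other lines were at most 14.5 TPM. For Clu the difference of the TGFβ responses had an unadjusted p of 0.000647 and an adjusted p of 1 (limma).

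Genes of the NRF2 and glutathione list, which handle oxidants and foreign compounds, held genes on both sides. Of 29 kept, 3 were past 2-fold higher and 1 lower in both treatments, the medians were 0.42 in control and 0.24 in TGFβ cells, and in the limma fit 9 of 30 were higher and 1 was lower, beside 10.4% and 12.4% of all genes. Osgin1, an oxidative stress gene, had 88.1 and 39.3 TPM in S133A/R314A-CREB control and TGFβ cells, against 19.2 and 15.5 TPM in R314A-CREB cells, a line difference of 1.72 ± 0.26 (limma, SE, adjusted p = 0.00244). Gsta2 had 79.1 and 12.4 TPM in S133A/R314A-CREB cells, against 12.0 and 0.519 TPM in R314A-CREB cells. Its copy Gsta1 had 32.1 and 6.28 TPM in S133A/R314A-CREB cells, against 3.83 and 1.503 TPM in R314A-CREB cells, without passing limma (adjusted p = 0.0526), and these paralogs may share reads.

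The ATF4 and amino acid response list, which answers to amino acid shortage, had a higher median in control than in TGFβ cells, and the difference between treatments was not tested for the list. Of 27 kept, 6 were past 2-fold higher in control and 2 in TGFβ cells, with 1 lower in TGFβ cells, and the medians were 0.59 in control and 0.02 in TGFβ cells. In the limma fit 7 of 27 were higher and none was lower, beside 10.4% and 12.4% of all genes. Vldlr, a lipoprotein receptor, had 39.0 and 28.0 TPM in S133A/R314A-CREB control and TGFβ cells, against 7.75 and 6.61 TPM in R314A-CREB cells, a line difference of 2.06 ± 0.14 (limma, SE, adjusted p = 3.57e-05). The amino acid transporter gene Slc7a5 had 511 and 429 TPM in S133A/R314A-CREB cells, against 185 and 230 TPM in R314A-CREB cells. Fas, the death receptor on the p53 list, had 78.9 and 79.3 TPM in S133A/R314A-CREB cells, against 34.1 and 22.6 TPM in R314A-CREB cells, and was the 1 of 22 kept p53 targets past 2-fold in both treatments.

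Col1a2, which encodes a chain of type I collagen (chr6:4505618-4541543, GRCm39), had the lowest mean difference. It had 0.751 and 2.41 TPM in S133A/R314A-CREB control and TGFβ cells, against 39.0 and 65.8 TPM in R314A-CREB cells, a line difference of -4.40 ± 0.23 (limma, SE, adjusted p = 8.51e-06). Col1a2 was kept only through its level in R314A-CREB cells, so its p-value is no added support. Its partner chain Col1a1 had 3.21 and 13.9 TPM in S133A/R314A-CREB cells and 6.20 and 16.1 TPM in R314A-CREB cells, under 2-fold in both treatments. Of the 22 kept mesenchyme and matrix genes, Col1a2 was the one past 2-fold in both treatments. Across the other 5 lines Col1a2 ran from 0.0854 to 70.6 TPM.

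The other lowest genes have varied roles. Napsa, an aspartic protease of lung and kidney, had 0.512 and 0.428 TPM in S133A/R314A-CREB control and TGFβ cells, against 23 and 24.1 TPM in R314A-CREB cells. Zfp13, a zinc finger gene, had 0.171 and 0.157 TPM in S133A/R314A-CREB cells, against 18.6 and 12.9 TPM in R314A-CREB cells. The other 10 libraries held 4.05 to 15.6 TPM of Zfp13, so that S133A/R314A-CREB stood apart from all other lines. Stac2, Cdc42ep5 and Ptprb showed the same order, each at most 1.22 TPM in S133A/R314A-CREB cells and at least 5.51 TPM in every library of the other 6 lines.

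Genes that respond to cAMP through CREB were close to the all-gene median. Of 24 kept cAMP-CREB response genes, none was past 2-fold in both treatments, and the medians were -0.03 in control and -0.15 in TGFβ cells. In the limma fit 6 of 30 were lower and none was higher, beside 12.4% and 10.4% of all genes. Bdnf, the neurotrophin with a CREB-dependent promoter, had 6.36 and 5.26 TPM in S133A/R314A-CREB control and TGFβ cells, against 13.3 and 14.6 TPM in R314A-CREB cells, a line difference of -1.14 ± 0.15 (limma, SE, adjusted p = 0.00115). Dusp1, a phosphatase of MAP kinases, differed by -0.75 ± 0.15 (limma, SE, adjusted p = 0.00894). Of the 18 of these 24 genes matched to a promoter, 4 held TGACGTCA and 15 held TGACG.

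SMAD targets of TGFβ were likewise close to the all-gene median. Of 23 kept, Mmp9 was the one past 2-fold in both treatments, and the medians were -0.17 in control and 0.10 in TGFβ cells. The list's median TGFβ response was 0.96 on the log2 scale in S133A/R314A-CREB cells and 0.75 in R314A-CREB cells. Pax6, the master regulator of eye development, and Six3, another lens regulator, were lower without passing 2-fold, by -0.83 ± 0.15 and -0.56 ± 0.08 (limma, SE, adjusted p = 0.00528 and 0.00162). None of the 28 mitosis and 31 replication genes was past 2-fold. In the limma fit 9 and 11 of them were lower and 1 and 3 higher, beside 12.4% lower and 10.4% higher of all genes.

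**Figure D4:**
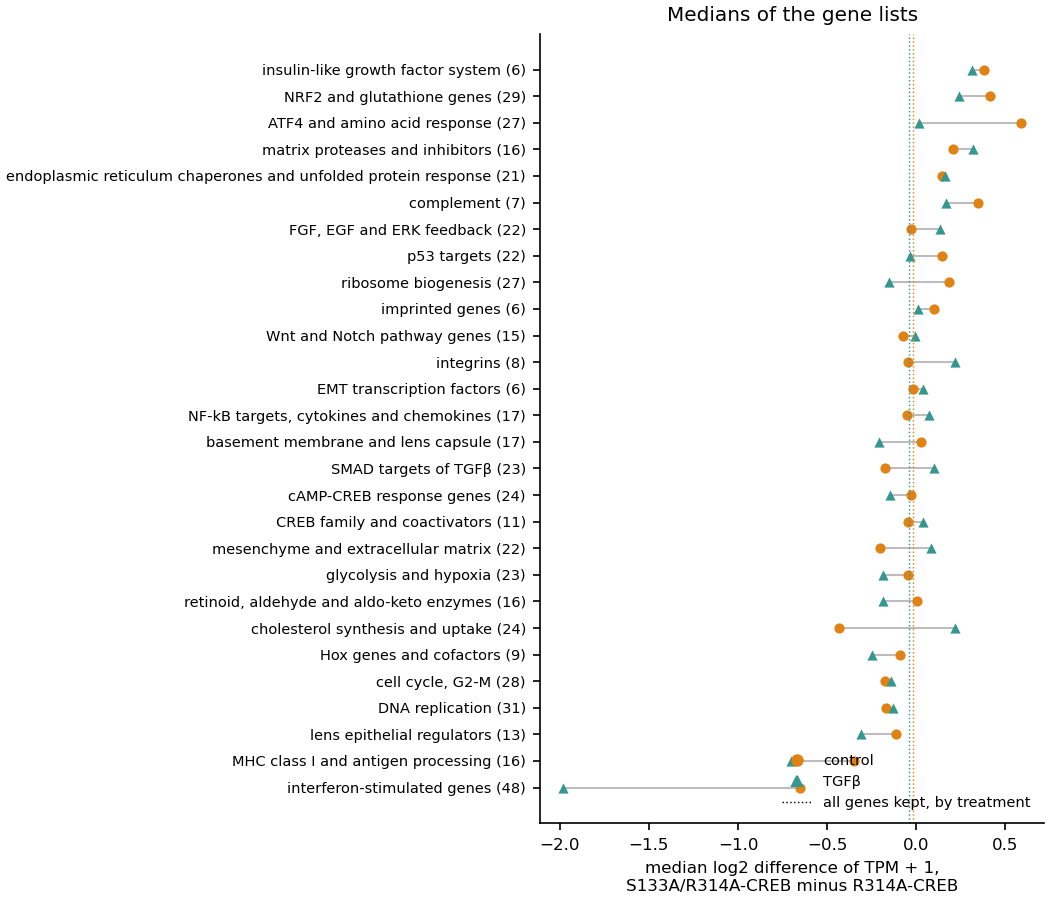
Median log2 difference of TPM + 1 (S133A/R314A-CREB minus R314A-CREB) of each gene list with at least 5 genes kept, with circles for control, triangles for TGFβ and the number of kept genes in brackets. The interferon list lies lowest, at -0.65 and -1.98. The germline list is left out, since the filter on levels decided its median.

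None of the genes past 2-fold in 1 treatment only passed the test that the 2 TGFβ responses differ. Over all 12927 genes that test gave no call at an adjusted p under 0.05 and 556 at an unadjusted p under 0.05 (4.3%), and its lowest adjusted p was 0.214. At an unadjusted p under 0.05 (limma) stood 13 of the 28, 12 of the 31, 14 of the 33 and 21 of the 52. The classes describe these libraries, and no gene was shown to differ between the lines in one treatment more than in the other.

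Lower in TGFβ only were 12 interferon-list genes, 23.1% of the 52. Ccl5, a T cell chemokine outside that list, had 5.70 and 8.94 TPM in S133A/R314A-CREB control and TGFβ cells, against 4.63 and 169 TPM in R314A-CREB cells, and the difference of the responses had an unadjusted p of 0.0161 and an adjusted p of 1 (limma). Oasl1, an inhibitor of Irf7 translation, had 3.54 and 5.73 TPM in S133A/R314A-CREB cells, against 3.90 and 61.7 TPM in R314A-CREB cells. Usp18, which removes ISG15 from proteins and damps interferon receptors, had 61.2 and 48.8 TPM in S133A/R314A-CREB cells, against 81.2 and 269 TPM in R314A-CREB cells. In all 3 the control libraries differed by less than 0.5 on the log2 scale, and among the 4 libraries that of R314A-CREB with TGFβ stood apart. S133A-CREB TGFβ cells had 84.9 TPM of Ccl5, 13.6 TPM of Oasl1 and 286 TPM of Usp18. Cxcl10, a chemokine that attracts T cells, differed by -0.61 in control as well. It had 3.44 and 14.5 TPM in S133A/R314A-CREB cells, against 5.79 and 150 TPM in R314A-CREB cells, and 177 TPM in S133A-CREB TGFβ cells.

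Higher in TGFβ only were Pxdn, a peroxidase that crosslinks collagen IV in basement membranes, and Tppp3, a tubulin-binding protein. Pxdn had 106 and 315 TPM in S133A/R314A-CREB control and TGFβ cells, against 141 and 151 TPM in R314A-CREB cells, and the TGFβ value exceeded those of the other 5 lines, which reached 213 TPM. Tppp3 had 58.6 and 178 TPM in S133A/R314A-CREB cells, against 62.7 and 63.3 TPM in R314A-CREB cells. Spon2, a secreted matrix protein, had 11.8 and 4.91 TPM in S133A/R314A-CREB cells, against 16.0 and 0.782 TPM in R314A-CREB cells, so that its level was lower with TGFβ in both lines.

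Higher in control only were Tfrc, the transferrin receptor that brings iron into cells, and Cdsn, a protein of epidermal junctions. Tfrc had 154 and 132 TPM in S133A/R314A-CREB control and TGFβ cells, against 59.9 and 142 TPM in R314A-CREB cells, so that the R314A-CREB control library was the low one. Cdsn had 153 and 33.2 TPM in S133A/R314A-CREB cells, against 60.8 and 38.8 TPM in R314A-CREB cells. Ogn, the proteoglycan osteoglycin, had 25.2 and 1.06 TPM in S133A/R314A-CREB cells, against 3.69 and 0.937 TPM in R314A-CREB cells.

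Lower in control only were 9 small RNA genes among 31. The mitochondrial tRNA gene TrnW had 134 and 154 TPM in S133A/R314A-CREB control and TGFβ cells, against 496 and 165 TPM in R314A-CREB cells. Of 17 kept mitochondrial tRNA genes, 9 were past 2-fold lower in control and 3 in TGFβ cells. The shares of all genes kept were 1.65% and 1.99%, and the medians of the 17 were -1.03 and -0.16. TrnH, TrnL2 and TrnS2, the genes lower in TGFβ cells, lay on the higher side in control, by 0.70, 0.56 and 0.45 on the log2 scale. The R314A-CREB control library was the shallowest of the 14 and its share of mitochondrial TPM was 8.20%, against 5.59% in S133A/R314A-CREB control cells, and the part of either in these values was not tested. Among proteins, Col6a2 of collagen VI had 3.25 and 1.25 TPM in S133A/R314A-CREB cells, against 14.4 and 1.75 TPM in R314A-CREB cells. Its partner Col6a1 had 25.2 and 21.3 TPM in S133A/R314A-CREB cells, against 99.9 and 31.9 TPM in R314A-CREB cells.

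**Figure D5:**
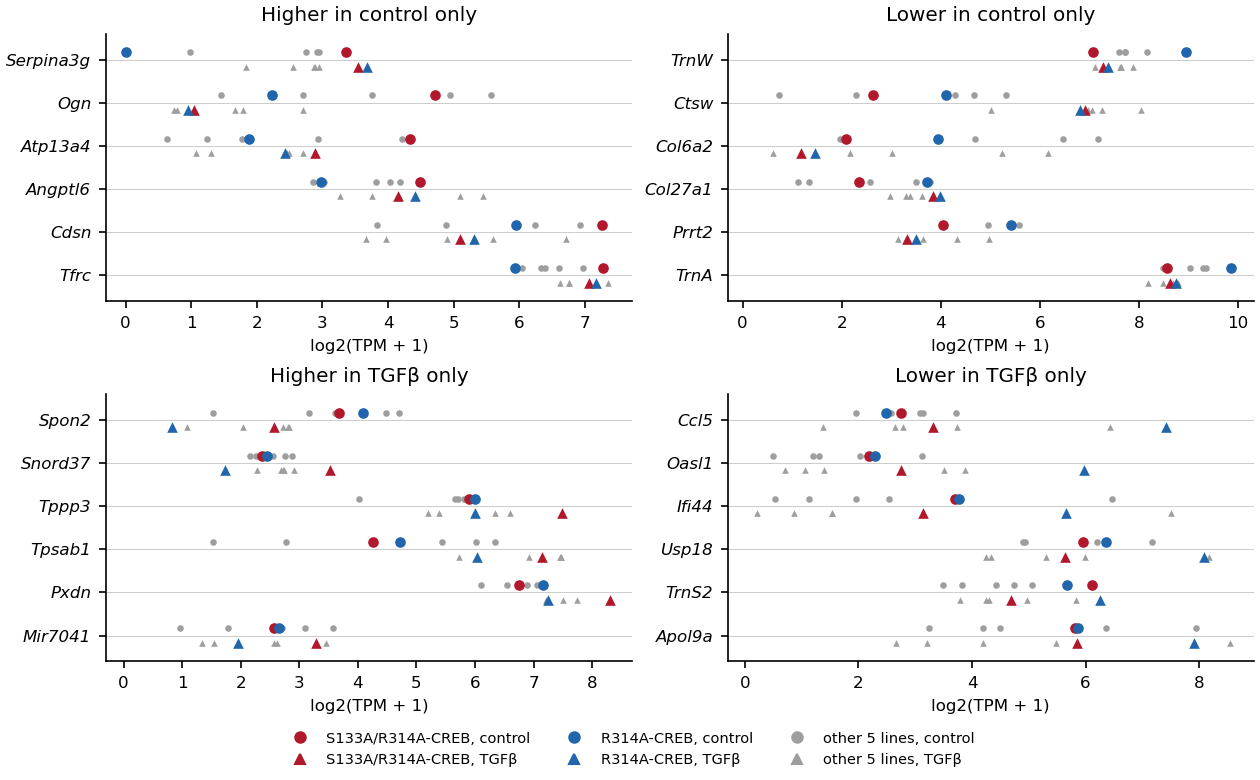
log2(TPM + 1) of the 6 named genes with the largest difference between TGFβ responses among genes past 2-fold in control only (top) and in TGFβ only (bottom), higher on the left and lower on the right. Red is S133A/R314A-CREB, blue R314A-CREB and grey the other 5 lines, with circles for control and triangles for TGFβ; for Ccl5 and Oasl1 the blue triangle, R314A-CREB with TGFβ, stands apart at 169 and 61.7 TPM.

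Genes next to the threshold show how narrow the classes are. Slc25a29 was just inside, with a smaller difference of 1.00, at 9.12 and 13.3 TPM in S133A/R314A-CREB cells and 4.06 and 5.66 TPM in R314A-CREB cells. Ap5b1 was just outside, at 5.79 and 5.25 TPM in S133A/R314A-CREB cells and 12.7 and 11.5 TPM in R314A-CREB cells.

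The line that stands apart from the rest was not always the same one. Of the 100 genes higher in both treatments, the median of the other 5 lines lay nearer to R314A-CREB for 60 and nearer to S133A/R314A-CREB for 40. S133A/R314A-CREB was above all 5 for 45 genes, R314A-CREB below all 5 for 31, and both lay within the range of the 5 for 36. Of the 83 lower genes, the other lines lay nearer to R314A-CREB for 42 and nearer to S133A/R314A-CREB for 41, and 34 had both lines within the range. Over all genes kept, both lines lay within the range for 55.9%.

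The pairs S133A-CREB with WT-CREB and S133A-KCREB with KCREB carry the same named change and share no library with these lines. Of the 100 higher genes, 74 were kept in the S133A-CREB pair, where 22 were past 2-fold higher and 10 lower in both treatments, beside 3.85% and 1.01% of all genes of that pair. In the S133A-KCREB pair 75 were kept, 25 higher and 10 lower, beside 2.21% and 1.91% of all genes. The 22 and 25 make up 5.41% of the 407 and 10.9% of the 230 genes higher there. Of the 83 lower genes, 73 were kept in the S133A-CREB pair, with 31 higher and 5 lower, and 67 in the S133A-KCREB pair, with 10 higher and 14 lower. All these genes were chosen for a large difference between 2 lines. In both pairs their shares lay above those of all genes in both directions. The counts are thus no independent sign of a change that comes with S133A.

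Of the 10437 genes kept, 8 were past 2-fold higher with S133A in all 3 pairs and both treatments, and none was lower in all 3. Pnma5, Nlrp4e and Cox7b2 were under 5 TPM in all R314A-CREB, WT-CREB and KCREB libraries. They were kept in each pair only through the S133A line and could only come out higher there, so the counts are no independent sign of a direction. The 8, named after their values were seen, are Pnma5, Nlrp4e, Cox7b2, Cyp2b13, Kank4os, Gm13470, Gm15128 and Gm46220, and Kank4os, an antisense gene, cannot be told from its partner since strand use is not stated. Nlrp4e differed by 4.17 and 3.85 in control and TGFβ cells of S133A/R314A-CREB over R314A-CREB, by 3.55 and 3.48 in S133A-CREB over WT-CREB, and by 4.23 and 3.49 in S133A-KCREB over KCREB. Cox7b2 differed by 3.58 and 3.53, by 4.84 and 3.67, and by 4.03 and 3.22 in the same order. The Vector line, which carries no S133A, also had 31.9 and 27.0 TPM of Cox7b2 in control and TGFβ cells. Vldlr and Serpinh1, a chaperone of collagen, were higher here and lower in both other pairs. Serpinh1 had 219 and 391 TPM in S133A/R314A-CREB control and TGFβ cells, against 84.2 and 130 TPM in R314A-CREB cells.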

How the data were processed

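The authors' deposited StringTie gene tables give TPM, FPKM and per-base coverage for each gene in each library; per the submitters' processing notes the tools were STAR 2.7.6a and StringTie 2.0.4 with GRCm39, among others. The annotation release and strand use have no entry in the labels or headers read here. Deposited TPM values on several lines of a gene were summed by gene identifier. Differences of log2(TPM + 1) understate the change of low genes. Deposited FPKM values served as an alternative, and coverage per FPKM as a measure of depth.

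Genes averaging 5 TPM or more in the 4 libraries were kept, and a difference of at least 1 (2-fold) was called. limma 3.58.1 (R 4.3.3) with a mean-variance trend was fitted to all 14 libraries on 12927 genes averaging 1 TPM or more. The line difference had line and treatment as terms, which left 6 residual degrees of freedom. The difference of responses added the interaction of the 2 lines and left 4, and so assumes that the 2 lines vary like the other 5. Python 3.11.15, pandas 2.3.3 and numpy 2.4.6 did the rest.

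On simulated data with 50 changed genes per size among 12927, the line difference recovered 60%, 82%, 96% and 98% of 1.5-, 2-, 4- and 8-fold changes with 8 false calls. The difference of responses recovered 0%, 18%, 72% and 92% with 5 false calls. The 2 libraries of a line were treated as 2 treatments of 1 line, except in the alternative without a treatment term, which takes them as replicates.

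Named genes were the CREB and CRTC genes, the 15 highest and 15 lowest mean differences among genes past 2-fold in both treatments, the 6 largest response differences in each class of 1 treatment, up to 4 members of each list, and the genes next to the threshold, with predicted genes passed over. Genes named beyond these are given as chosen after their values were seen, or are members of a list or pair count. The members, gene lists and this rule were chosen with earlier results of these data known. Alternatives were other pseudocounts, scalings, filters, folds and model terms, and leaving out each other line. Promoter windows are RefSeq sequence on GRCm38.p6, matched by symbol. One gene of the interferon list is not reported here.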

Additional observations from a re-analysis of the deposited data

How the results depend on the processing

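Each line and treatment has 1 library, so leaving out a replicate within a treatment was not possible, and each of the other 5 lines was left out instead. The labels give no replicate numbers to block on, and the reported fit already matches the 2 libraries of a line through its line and treatment terms. No named gene called past 2-fold changed direction. The median mean difference turned sign under a scaling for the SMAD, EMT factor, basement membrane, integrin and NF-kB lists, all within 0.1 of 0. Of the differences of named genes and list medians under other settings, 966 moved by less than their spread and 168 by more.

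Of the genes past 2-fold in both treatments, 100 higher and 83 lower as reported, a pseudocount of 5 left 60 and 42. A mean of at least 1 TPM gave 200 and 131, at least 10 TPM gave 60 and 54, and no filter gave 218 and 135. At 1.5-fold there were 365 and 370, and at 4-fold 36 and 13. In control only, 28 higher and 31 lower became 64 and 64 at 1 TPM, 95 and 94 with no filter, 141 and 122 at 1.5-fold and 3 and 1 at 4-fold. The higher count was 18 at 10 TPM, and the lower count was 18 with a pseudocount of 5 and 20 with FPKM. In TGFβ only, 33 higher and 52 lower became 18 and 29 with a pseudocount of 5, 74 and 90 at 1 TPM, 107 and 121 with no filter, 113 and 156 at 1.5-fold and 2 and 15 at 4-fold, and the higher count was 21 at 10 TPM. The cause was not tested beyond the change of genes or threshold that each setting makes.

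The limma line difference called 1347 higher and 1605 lower. It called 887 and 928 with no filter, 582 and 521 with the 4 libraries alone (fewer samples) and 428 and 505 without the treatment term, and 1173 to 1428 higher and 1396 to 1666 lower without 1 of the other lines. The split was 1195 and 1843 without mitochondrial genes and 1078 and 1707 with FPKM. The difference of responses called 0 and 0, and 459 and 553 with no filter, where 992 of the 1012 genes have a mean under 1 TPM; without 1 line it called 0. The median of all genes kept ran from -0.06 to 0.01 over the scalings. Of the genes chosen by the naming rule, 103 passed and 98 of them passed without each other line; Ifit1, Nlrc5, Gadd45a, Pmvk and Wnt10a did not, nor did Stat2 and Irf9, which were named beyond it. The interferon genes called lower numbered 22 without Vector and 29 without KCREB, against 28 as reported.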

Other observations

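Clustered protocadherins, cell adhesion proteins of neurons, were noticed after their values were seen. Of 58 in the tables, 6 were kept and 3 were past 2-fold higher in both treatments, beside 0.958% of all genes kept. Pcdhb18, among the 3, had 4.57 and 3.51 TPM in R314A-CREB cells and was kept only through its level in S133A/R314A-CREB cells. The count is thus no independent sign of a direction. Pcdhb17 had 22.7 and 32.5 TPM in S133A/R314A-CREB control and TGFβ cells, against 4.77 and 5.57 TPM in R314A-CREB cells. Pcdhgb2 had 39.0 and 31.7 TPM in S133A/R314A-CREB cells, against 7.63 and 5.87 TPM in R314A-CREB cells. Pcdhgb7 lay on the other side, with 17.4 and 19.04 TPM in S133A/R314A-CREB cells, against 32.6 and 29.1 TPM in R314A-CREB cells (limma, adjusted p = 0.0102). These genes share exons or similar sequence, among which reads could be split.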
